A study of Mus musculus with 3 samples.

Results

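Autophagy and lysosome genes were examined in mpkDCT4a cells, an immortalised mouse line named for the kidney segment it came from, the distal convoluted tubule. The 43 genes were taken by name from the 55487 genes of the deposited count table, and all 43 were found there under their GENCODE M21 symbols. The study, titled for the three-dimensional arrangement of gene regulation in this tubule segment, supplied 3 libraries labelled as replicates of unmodified cells, so there was 1 group and no comparison between conditions. The cells had been kept at 37 °C in DMEM/F-12 with 2% fetal calf serum, glutamine (2 mM), glucose (20 mM), insulin (5 µg/ml), transferrin (5 µg/ml), dexamethasone (50 nM), triiodothyronine (1 nM) and epidermal growth factor (10 ng/ml). The medium was thus a fed one with insulin present, and no starved group was measured. Whether the replicates were grown as separate cultures is not stated in the labels, so p-values here measure only the spread between these libraries, which may be technical.

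Autophagy is the route by which a cell encloses parts of its own cytoplasm in a double membrane and delivers them to the lysosome. A kinase complex starts the membrane, a lipid kinase complex marks it, and ubiquitin-like conjugation fixes proteins of the ATG8 family to it, where they bind receptors that carry the cargo. The lysosome then digests the contents with acid hydrolases, and transcription factors of the MiT/TFE family switch on many of the genes of both steps. In kidney tubules the pathway is known for turning over mitochondria and reabsorbed protein.

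Levels are given in TPM, the scaled share of transcripts, which divides the count of a gene by the summed length of its annotated exons, so that different genes can be set beside each other. They are means ± SD over the 3 libraries (n = 3). Total counts were 436983 for replicate 1, 482418 for replicate 2 and 443192 for replicate 3. A single count therefore stood for 2.31, 2.07 and 2.24 CPM, the count scaled to library size. In a bulk library, fewer cells with a transcript and less of it per cell cannot be told apart. Intervals and limits given below cover counting error only. A mean of at least 1 CPM is called detected. At this depth 2 counts over the 3 libraries together can reach it, so a gene called detected may lack counts in a library.

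The line expressed nearly all of the members, which were chosen with earlier results of these data known. Of the 43 members 42 were detected and had a count in every library, or 97.7%, against 50.6% of all 21974 protein-coding genes. In further lists described below, 154 of 170 genes were detected. Of the members 40 reached 10 TPM, against 40.0% of protein-coding genes. The median member stood at 53.2 ± 2.46 TPM, the SD being that of the medians of the single libraries, where the 11122 detected protein-coding genes had a median of 31.4 TPM. With lengths averaged over protein-coding transcripts in place of all exons the members' median was 72.1 TPM. The median of detected protein-coding genes was not computed with those lengths, so the 72.1 TPM cannot be set against 31.4 TPM. In all, 29 members lay above the median of the detected protein-coding genes, and 9 were in the top 10% by level.

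Among the genes chosen as members, the lysosomal ones stood higher than the autophagy ones. The 18 genes of the lysosomal membrane, proteases, glycosidases, activators and sterol carrier had a median of 135 ± 12.8 TPM. The 25 autophagy genes and factors had a median of 39.6 ± 3.95 TPM, and each group's SD is again that of the library medians. Of the 18 lysosomal genes 15 lay above the median of detected protein-coding genes, and of the 25 others 14 did. The contrast was less clear in further lists described below. There the median was 39.7 TPM for other lysosomal hydrolases, 35.6 TPM for other lysosomal membrane and transport genes and 75.4 TPM for the proton pump. Other autophagy core genes had a median of 29.3 TPM, below all of these. Other cargo receptors had one of 67.6 TPM, above all of these but the proton pump.

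Per exon length the order of levels was led by Psap, Sqstm1, Lamp1, Gabarap and Cd63, which together held 60.2%, 59.9% and 56.5% of the members' summed TPM in replicates 1, 2 and 3. These were also the 5 highest members with either of the other transcript lengths tried, but in another order. Cd63 then led with 1049 TPM (average) or 1252 TPM (longest), ahead of Psap with 831 or 1121 TPM and Sqstm1 with 903 or 795 TPM. Of the 42 pairs of neighbours in the order, 10 had ranges over the libraries that did not overlap and 32 had ranges that did. Most of those 10 lay among the highest members, down to Ctsl.

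**Figure D1:**
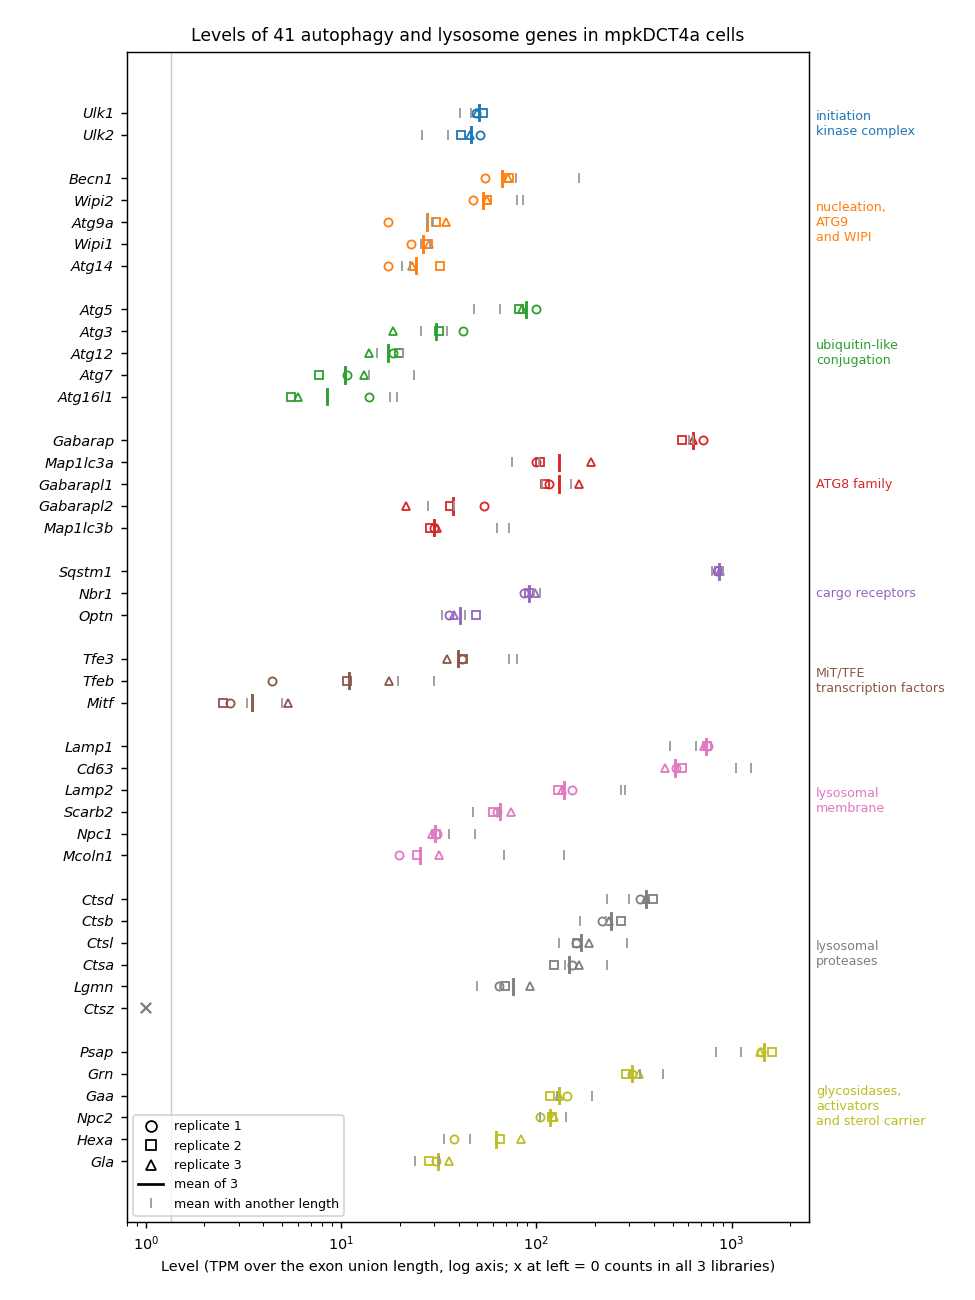
Levels of 41 of the 43 members by role. The horizontal log axis is TPM, open symbols are the 3 replicates, coloured bars are their means and grey ticks are the means with the 2 other transcript lengths. Psap (1473 TPM) is at the right end, Mitf (3.52 TPM) is the lowest member with counts, and the cross at the left is Ctsz with 0 counts.

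No member passed the test for a difference between the replicates. Counts were tested gene by gene against library size (chi-square, Benjamini-Hochberg adjustment over the 12473 detected genes). Of 42 members 0 passed, where 5 genes (0.0401%) did. The lowest adjusted p of a member was 0.902. At an unadjusted p under 0.05 there was 1 member, Atg16l1 (2.38% of the 42), against 610 genes or 4.89% of all tested. With DESeq2 size factors 0 members passed as well. The coefficient of variation of the TPM values ran from 1.61% for Sqstm1, with 1067 counts, to 60.2% for Tfeb, with 23 counts.

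The paralogous kinase genes of the complex that starts autophagy were both detected. Ulk1 had 38, 45 and 39 counts in replicates 1, 2 and 3, or 50.7 ± 2.23 TPM (GRCm38 chromosome 5, 110784488 to 110810097, minus strand). Ulk2 had 37, 32 and 33 counts, or 46.3 ± 5.35 TPM. Replicate 1 had the lower ratio and the ranges of both genes overlapped. Ulk1 had 1.10 times the level of Ulk2 per exon length (95% exact binomial counting interval 0.840 to 1.45), an interval that held 1. With average transcript lengths the ratio was 1.56 (1.19 to 2.05), which excluded 1, and Ulk1 was then the higher in all 3 libraries. Whether these genes differed thus depended on the length used.

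Genes of membrane nucleation lay between 24.2 and 66.4 TPM. Becn1, the Beclin 1 subunit of the lipid kinase complex, had 46, 67 and 61 counts, or 66.4 ± 10.3 TPM. Atg14, which directs that complex to autophagy, had 9, 18 and 12 counts, or 24.2 ± 7.34 TPM. Becn1 was higher in all 3 libraries, at 2.73 times Atg14 (1.92 to 3.97), or 7.35 times with average transcript lengths. Of the exon bases of Becn1 43.9% are also exons of Cntd1 on the opposite strand, a gene with 0 counts, and the sources used here do not name the strand setting of the counting. How reads from the overlap were assigned was not tested.

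Wipi2, a reader of the lipid that this complex makes, had 60, 77 and 71 counts (53.2 ± 4.88 TPM). Its paralog Wipi1 had 12, 16 and 15 counts (26.3 ± 3.08 TPM). The libraries gave nearly the same ratio, Wipi2 being 2.02 times Wipi1 (1.45 to 2.88), or 3.12 times with the longest transcripts. Atg9a, the membrane-spanning scramblase of the pathway, stood at 27.6 ± 9.02 TPM from 12, 23 and 24 counts. Exons of a same-strand transcript, Gm29253, cover 31.8% of its exon bases and has 0 counts.

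The conjugation genes included the members of the pathway with some of the lowest levels. Atg5, which is joined to ATG12, was the highest of these at 88.7 ± 9.57 TPM (28, 25 and 24 counts). Its partner Atg12 (17, 20 and 13 counts) stood at 17.5 ± 3.07 TPM, and Atg16l1, which holds the pair on the membrane, at 8.51 ± 4.67 TPM. All 3 libraries put Atg5 above both partners, at 5.05 times Atg12 (3.49 to 7.36) and 10.5 times Atg16l1 (6.81 to 16.6). With average transcript lengths the ratios were 3.12 and 2.72.

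Atg16l1 had 16 counts in replicate 1 and 7 in each of replicates 2 and 3. This was the member with the lowest unadjusted p for a difference between the replicates (chi-square p = 0.0403, adjusted p = 0.902 over all detected genes). Atg7, the activating enzyme of both conjugation arms, had 9, 7 and 11 counts, or 10.5 ± 2.72 TPM (counting interval 6.95 to 15.3). Atg3, the ATG8 conjugating enzyme, had 16, 13 and 7 counts and 30.8 ± 12 TPM. Atg7 was below Atg3 in every library, at 0.339 times (0.198 to 0.575), although replicate 3 brought them closer than the others did. With average transcript lengths the ratio was 0.913, and its interval of 0.533 to 1.55 held 1.

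Gabarap dominated the ATG8 family. It had 157, 134 and 140 counts, or 712, 558 and 632 TPM (ENSMUSG00000018567, GRCm38 chromosome 11, 69991143 to 69994951, plus strand), and held 65.9% ± 4.86 of the TPM summed over the 5 family genes. Gabarapl1 and Map1lc3a followed, both at a mean of 131 TPM, Map1lc3a with the wider spread (99.2, 104 and 190 TPM) and each with 13.5% of the family's TPM on average. Gabarapl2, with 15, 11 and 6 counts, stood at 37.3 ± 16.3 TPM, and Map1lc3b, the gene of the widely used autophagosome marker LC3B, at 29.9 ± 1.20 TPM from 27, 28 and 28 counts. In each library Gabarap lay above every other member of the family and the ranges did not overlap.

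Gabarap was 4.85 times Gabarapl1 per exon length (3.88 to 6.11), 17.0 times Gabarapl2 (11.8 to 25.1) and 21.2 times Map1lc3b (16.7 to 27.1). Against Map1lc3b the ratio was 10.1 with the longest and 8.29 with the average transcripts, since the exon union of Map1lc3b (7517 bases) is far longer than its transcripts. The order of the LC3 genes was less firm. Map1lc3b was 0.229 times Map1lc3a per exon length (0.161 to 0.326), but 0.966 times with average transcript lengths, where the interval of 0.681 to 1.38 held 1. Map1lc3a had 14, 16 and 27 counts, highest in replicate 3 (chi-square p = 0.0631, adjusted p = 0.902).

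Sequence shared with other genes touches this family unevenly. Of the 50-base stretches in Gabarapl1 transcripts 23.1% occur in an overlapping transcript on the opposite strand, 1700101I11Rik. Of those of Gabarapl2 12.2%, and of Map1lc3b 6.01%, occur in other annotated genes. Gabarap and Map1lc3a share none. How the counting treated reads from such stretches is not stated, so the levels of Gabarapl1, Gabarapl2 and Map1lc3b are less certain.

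Sqstm1 was the leading cargo receptor and, per exon length, stood next to Psap at the top of the members. This gene, which encodes p62, a receptor for ubiquitin-tagged cargo, had 339, 376 and 352 counts, or 845, 860 and 872 TPM (ENSMUSG00000015837, chromosome 11, 50199366 to 50210827, minus strand). Its level lay at percentile 99.1 of the detected protein-coding genes. Nbr1, a related receptor, stood at 92 ± 5.82 TPM (71, 82 and 81 counts), and Optn, the optineurin receptor, at 40.8 ± 7.25 TPM (16, 24 and 17 counts). Sqstm1 was 9.34 times Nbr1 (8.10 to 10.8) and 20.9 times Optn (16 to 27.8). Of the TPM summed over these 3 genes it held 87.4%, 85.9% and 86.5% in the 3 libraries. Mrnip, an opposite-strand neighbour with 4, 3 and 5 counts, overlaps 17.3% of the exon bases of Sqstm1.

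Among the MiT/TFE factors, which activate lysosomal and autophagy genes, Tfe3 was the highest. It had 46, 51 and 39 counts, or 39.6 ± 3.99 TPM (ENSMUSG00000000134, chromosome X, 7762560 to 7775202, plus strand). Tfeb had 3, 8 and 12 counts, or 4.43, 10.8 and 17.6 TPM (ENSMUSG00000023990, chromosome 17, 47737030 to 47792419, plus strand). Mitf, known as the melanocyte factor, had 2, 2 and 4 counts and 3.52 ± 1.61 TPM (counting interval 1.52 to 6.93).

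Tfe3 lay above both relatives in all libraries, at 3.62 times Tfeb (2.32 to 5.90) and 11.4 times Mitf (5.61 to 26.9). With average lengths the ratio to Tfeb was 2.40, and with the longest transcripts that to Mitf was 24.5. The spread of Tfeb was the widest of all members relative to its mean, but it did not pass the replicate test after adjustment (chi-square p = 0.0745, adjusted p = 0.902). Tfe3 took 85.4%, 76.1% and 60.4% of the 3 factors' summed TPM in replicates 1, 2 and 3. Tfec, the remaining gene of the family, had 0 counts.

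The MiT/TFE factors are known to bind an E-box in the promoters of lysosomal genes, and the letters of that element were looked for in the members' promoters. RefSeq promoter windows (GRCm38.p6, 250 bases before to 50 after each annotated start) were at hand for 36 of the 43 members. The 6-base E-box CACGTG and its 8-base form TCACGTGA, which contains it, each read the same on both strands. A 10-base form, which adds a base to each end of the 8-base one and also reads the same on both strands, was searched too. The stretches below are from members with the 8-base form, and from Lamp1, which has the most matches. They are printed 5′ to 3′ on the strand of the gene, with the 8-base form in capitals, or for Lamp1 the 6-base form.
Lamp1 (chr8:13159080-13159171, plus strand): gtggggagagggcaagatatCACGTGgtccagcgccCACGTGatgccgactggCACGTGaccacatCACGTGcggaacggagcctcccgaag
Ctsa (chr2:164833740-164833786, plus strand): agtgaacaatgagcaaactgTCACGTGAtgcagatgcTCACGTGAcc
Gla (chrX:134601173-134601253, minus strand): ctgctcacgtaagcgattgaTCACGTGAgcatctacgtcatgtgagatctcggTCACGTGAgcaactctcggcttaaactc
Ctsd (chr7:142387899-142387946, minus strand): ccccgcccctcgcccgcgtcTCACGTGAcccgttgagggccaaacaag
Mcoln1 (chr8:3500453-3500500, plus strand): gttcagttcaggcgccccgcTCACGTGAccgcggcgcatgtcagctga
Atg3 (chr16:45158737-45158784, plus strand): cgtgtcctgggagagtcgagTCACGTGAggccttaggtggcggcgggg

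Of the 36 members with a window 12 held CACGTG (33.3%), against 12.2% of 8822 detected protein-coding genes and 7.15% of all 32851 windows. TCACGTGA was in 5 of the 36 (13.9%), against 2.34% of the detected protein-coding genes and 0.974% of all windows. The 10-base form was in 0 of the 36 members' windows, against 0.850% of the detected protein-coding genes and 0.326% of all windows. By role, CACGTG was in 8 of 16 lysosomal members and in 4 of the 20 others. The further lysosomal gene lists described below differed among themselves. CACGTG was in 5 of 26 other hydrolase genes (19.2%), 5 of 22 other membrane and transport genes (22.7%) and 4 of 19 proton pump genes (21.1%). Among the genes for sorting enzymes to the lysosome it was in 5 of 10 (50.0%). A match of letters is a description of the sequence and does not show that a factor was bound in these cells.

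Levels of members with and without the letters overlapped widely. The 8 lysosomal members with CACGTG had a median of 139 TPM (range 25.4 to 743), and the 8 without had a median of 128 TPM (0 to 1473). For the 8-base form the lysosomal medians were 89.5 TPM with it (4 genes) and 135 TPM without it (12 genes). Over all 36 members the medians were 82.2 TPM with CACGTG and 52.0 TPM without it, but 31.5 TPM with the 8-base form and 62.2 TPM without it. These medians are per exon length, and whether they keep their order with other lengths was not tested. With average transcript lengths the genes with the 8-base form stood at 25.7 (Atg3), 31.8 (Gla), 138 (Mcoln1), 230 (Ctsa) and 230 TPM (Ctsd). Lamp1, at 743 TPM per exon length, and Mcoln1, at 25.4 TPM, both carried matches within 70 bases upstream of their start sites. Psap, Cd63, Grn and Sqstm1, all among the highest members, carried none in their windows, and neither did Gabarap.

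**Figure D2:**
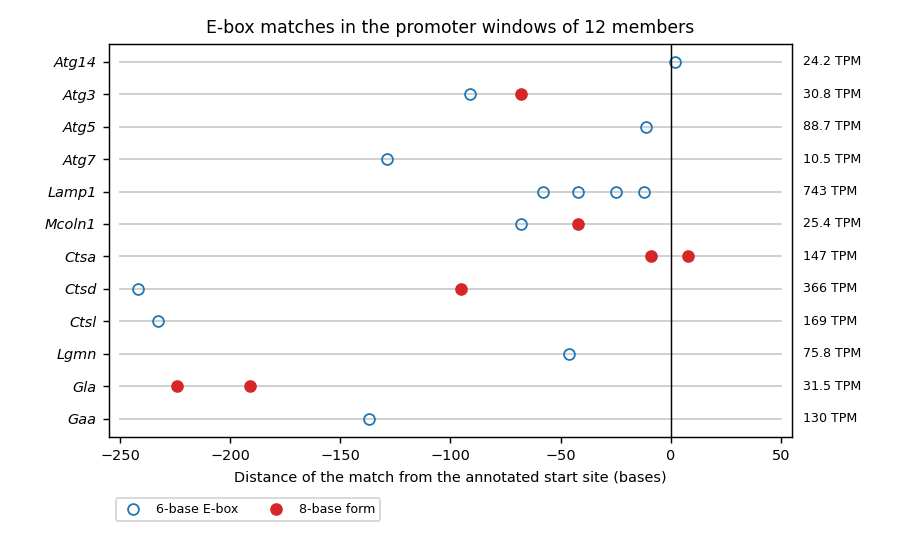
Positions of E-box matches in the promoter windows of the 12 members that hold one. The horizontal axis is the distance in bases from the RefSeq start site (vertical line), open circles are the 6-base letters, filled circles the 8-base form, and the mean TPM of each gene stands at the right. Lamp1 has 4 matches in the 60 bases before its start, while those of Gla lie more than 180 bases before it.

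The membrane of the lysosome was represented by all 6 members. Lamp1, an abundant glycoprotein of the lysosomal membrane, had 243, 261 and 232 counts, or 743 ± 19.8 TPM (ENSMUSG00000031447, chromosome 8, 13159161 to 13175338, plus strand). Lamp2, which also serves in chaperone-mediated autophagy, had 175, 160 and 155 counts, or 139 ± 12.8 TPM. The ranges of the LAMP genes did not overlap, with Lamp1 at 5.36 times Lamp2 per exon length (4.78 to 6.03). That ratio was 2.43 with the longest transcripts and 1.70 with average ones, as Lamp2 has 9552 exon bases in all but 3604 in its longest transcript.

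Cd63, a tetraspanin of late endosomes and lysosomes, had 229, 268 and 202 counts, or 512 ± 51.8 TPM (ENSMUSG00000025351, chromosome 10, 128900989 to 128912822, plus strand). It was 0.690 times Lamp1 per exon length (0.621 to 0.766), but 1.91 times with the longest transcripts (1.72 to 2.12), so the order of these genes changed with the length used. A pseudogene, Cd63-ps, with 0, 4 and 2 counts shares 9.70% of the 50-base stretches of Cd63. Scarb2, the LIMP-2 receptor that brings glucocerebrosidase to the lysosome, stood at 65.5 ± 7.57 TPM, 0.471 times Lamp2 (0.390 to 0.567), or 0.166 times with average transcript lengths.

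The calcium channel gene Mcoln1, which encodes mucolipin 1, had 18, 24 and 29 counts and stood at 25.4 ± 6.07 TPM, lowest in replicate 1. Its level was higher with other lengths, at 68.5 TPM with the longest transcripts and 138 TPM with average ones. Npc1, the membrane transporter that exports cholesterol, had 42, 45 and 40 counts and 30.3 ± 0.840 TPM. Its soluble partner Npc2, which hands cholesterol to NPC1, had 68, 86 and 81 counts and 117 ± 10.5 TPM. Npc2 was the higher in each library, at 3.85 times Npc1 (3.09 to 4.82).

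Of the 6 lysosomal proteases 5 were expressed. Ctsd, the aspartic protease cathepsin D, was the highest per exon length with 95, 121 and 103 counts, or 366 ± 28.6 TPM (ENSMUSG00000007891, chromosome 7, 142375911 to 142388038, minus strand). The cysteine proteases Ctsb (157, 215 and 171 counts) and Ctsl (124, 136 and 145 counts) stood at 242 ± 28.5 and 169 ± 14.7 TPM. In every library Ctsd lay above Ctsb and Ctsb above Ctsl. Ctsd was 1.51 times Ctsb (1.31 to 1.74) and Ctsb 1.44 times Ctsl (1.26 to 1.64).

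The last of these ratios turned with average transcript lengths, to 0.580 (0.509 to 0.661), because the exon union of Ctsl holds 6489 bases and its transcripts 2051 on average. With those lengths Ctsl, at 290 TPM, also stood above Ctsd, at 230 TPM. Overlaps also touch these genes. Exons of Gm49369 on the same strand cover 34.4% of the exon bases of Ctsd, and Gm47123 on the opposite strand covers 26.8% of those of Ctsl, both with 0 counts. For Ctsb, 12.8% of exon bases overlap Fdft1, a gene on the opposite strand with 67, 88 and 73 counts.

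Ctsa, the carboxypeptidase protective protein cathepsin A, had 86, 76 and 94 counts, or 147 ± 21.5 TPM. Lgmn, the asparaginyl endopeptidase legumain, had 18, 21 and 26 counts, or 75.8 ± 15.2 TPM. Ctsa was 1.94 times Lgmn (1.47 to 2.59), the higher in all libraries, and 4.59 times with average transcript lengths. On the opposite strand Pltp, with 19, 15 and 19 counts, overlaps 10.5% of the exon bases of Ctsa. Neurl2, also on the opposite strand, with 0, 2 and 0 counts, overlaps 6.87% of them.

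Ctsz was the only member with no count. The gene of cathepsin Z, a carboxypeptidase of the cysteine cathepsins (ENSMUSG00000016256, chromosome 2, 174427493 to 174439039, minus strand, 1441 exon bases), had 0 counts in all 3 libraries, which allows a level of up to 5.63 TPM (3 counts over the libraries together). Per exon length it was at least 30.0-fold lower than Ctsl, computed against those 3 counts. None of its 50-base stretches occur in another annotated gene. Nelfcd, the opposite-strand neighbour whose exons share 10 bases with Ctsz, had 43, 24 and 26 counts.

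The soluble hydrolases and their helpers spanned a wide range. Psap, the precursor of the saposins that assist sphingolipid breakdown, had the highest level of all members per exon length, though not with the other lengths, with 465, 573 and 461 counts, or 1417, 1603 and 1397 TPM (ENSMUSG00000004207, chromosome 10, 60277627 to 60302597, plus strand). It lay at percentile 99.6 of the detected protein-coding genes. Grn, the gene of progranulin, a lysosomal protein that binds prosaposin, had 129, 130 and 140 counts and 311 ± 24.0 TPM. Psap was 4.76 times Grn per exon length (4.26 to 5.32), and 1.87 times with average transcript lengths.

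Gaa, the glycogen-cleaving acid glucosidase, had 82, 73 and 75 counts, or 130 ± 13.1 TPM. Gla, the galactosidase lacking in Fabry disease, had 12, 12 and 14 counts, or 31.5 ± 3.79 TPM, and was 0.242 times Gaa (0.167 to 0.342). Hexa, the alpha subunit of hexosaminidase, had 9, 17 and 20 counts and 62.2 ± 23.0 TPM, lowest in replicate 1.

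In all, 25 pairs of related genes were compared. Per exon length the first gene stood on the same side of the second in all 3 libraries for 24, the exception being Ulk1 and Ulk2. With average transcript lengths the libraries disagreed instead for Atg7 and Atg3 and for Map1lc3b and Map1lc3a. An exact two-sided sign-flip permutation test over 3 libraries cannot give a p below 0.25, the value of all 24 (Benjamini-Hochberg adjusted p = 0.260 over the 25 pairs; 0.5 for Ulk1 and Ulk2). The counting interval of the ratio excluded 1 for 23 pairs and held it for 1. For the pair with Ctsz no interval was computed.

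**Figure D3:**
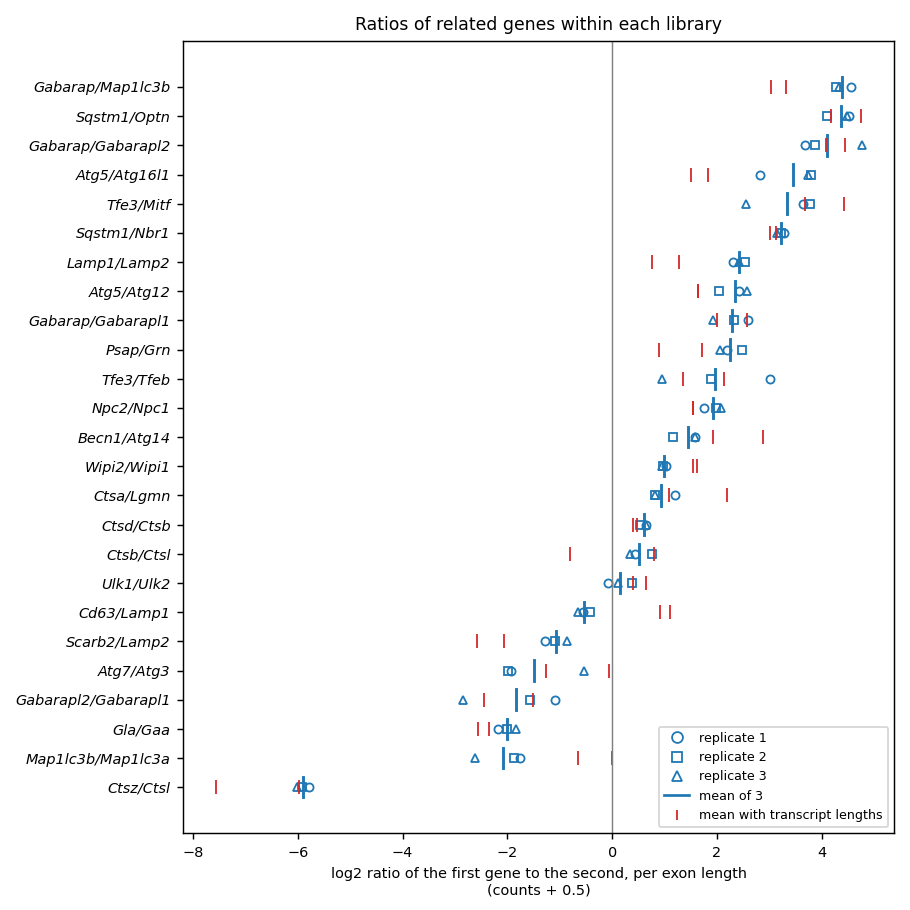
Ratios of related genes within each library. The horizontal axis is the log2 ratio of the first gene to the second per exon length, symbols are the 3 replicates, blue bars their means, and red ticks the means with the 2 transcript lengths. The replicates sit on 1 side of 0 for all pairs but Ulk1/Ulk2, and both red ticks of Cd63/Lamp1 and 1 of Ctsb/Ctsl lie on the other side of 0.

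The rest of the pathway was described by 7 further lists with 170 genes. Of these 154 were detected, and the median of all 170 was 42.5 ± 1.88 TPM. None passed the chi-square test after adjustment. At an unadjusted p under 0.05 there were 9 of the 154, where 4.89% of all tested genes were. All 31 other autophagy core genes were detected, with a median of 29.3 ± 0.295 TPM. They were led by Vmp1, a membrane scramblase (177 ± 16.8 TPM), the vesicle tethering subunits Vps33a (95.6 ± 9.75 TPM) and Vps41 (87.4 ± 11.4 TPM), and the fusion protein gene Vamp8 (77.1 ± 10.9 TPM). Rubcn, a brake on autophagosome maturation, had the lowest unadjusted p of the lists with 37, 49 and 73 counts (chi-square p = 0.00151, adjusted p = 0.835).

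All 13 other cargo receptor genes were detected too (median 67.6 ± 7.29 TPM). The mitophagy receptor Bnip3l (189 ± 20.8 TPM), Phb2 (188 ± 35.5 TPM), the endoplasmic reticulum receptor Sec62 (174 ± 11.2 TPM) and Tax1bp1 (90.3 ± 2.27 TPM) were the highest. Each lay far below Sqstm1.

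The proton pump that acidifies the lysosome had 19 of 25 genes detected, with a median of 75.4 ± 3.98 TPM. Atp6ap1 (198 ± 23.0 TPM), Atp6v0d1 (174 ± 16.1 TPM), Atp6v1a (170 ± 9.91 TPM) and Atp6v1f (170 ± 61.6 TPM) were the highest. The genes of this list that were not detected were Atp6v0d2, Atp6v1b1, Atp6v1e2, Atp6v1g2 and Atp6v1g3, with 0 counts, and Atp6v1c2, with 1 count, in replicate 3. Atp6v0a4 was the lowest of the detected ones, with 3, 4 and 5 counts (6.53 ± 1.69 TPM).

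Of 37 other hydrolase genes 32 were detected and 30 had a count in every library. The list's median was 39.7 ± 0.712 TPM. Scpep1, a serine carboxypeptidase, stood at 652 ± 10.1 TPM, followed by the acid ceramidase gene Asah1 (232 ± 28.9 TPM). The proteases Ctse, Ctsk, Ctss, Ctsw and Napsa had 0 counts, as Ctsz had. Of 26 other membrane and transport genes 22 were detected, with a median of 35.6 ± 2.67 TPM. Laptm4a (541 ± 41.5 TPM) and Laptm4b (254 ± 15.2 TPM) led them, and the ion channel gene Tpcn1 stood at 82.2 ± 7.47 TPM. Mcoln2 and Mcoln3, the paralogs of Mcoln1, and Lamp3 had 0 counts.

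All 14 genes for sorting enzymes to the lysosome were detected (median 46.9 ± 6.41 TPM). The retromer subunits Vps26a (276 ± 12.5 TPM) and Vps35 (198 ± 1.48 TPM) and the mannose 6-phosphate receptors M6pr (144 ± 25.5 TPM) and Igf2r (114 ± 14.8 TPM) led them. Of the 24 genes in a list on nutrient control of TFEB, which also took in other transcription factors, 23 were detected (median 47.3 ± 7.80 TPM). They were led by the Ragulator subunit Lamtor5 (143 ± 50.9 TPM), the transcription factor gene Foxo3 (133 ± 13.3 TPM) and the Rag GTPases Rragc (127 ± 25.1 TPM) and Rraga (119 ± 39.8 TPM). Tfec was the gene of this list without counts.

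**Figure D4:**
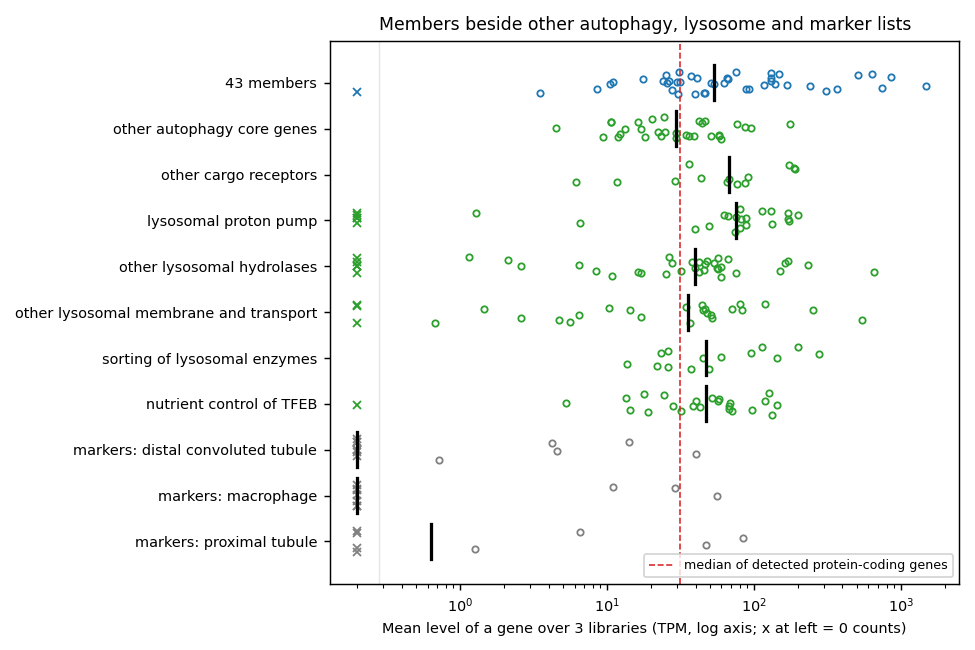
Mean levels of the 43 members beside the 7 further lists and 3 marker lists. Each circle is a gene at its mean TPM over 3 libraries on a log axis, crosses at the left are genes with 0 counts, black bars are list medians and the dashed line is the median of detected protein-coding genes (31.4 TPM). The members' median (53.2 TPM) lies to the right of that line, and those of the distal convoluted tubule and macrophage markers lie at 0.

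Markers of the labelled cell type were partly without counts. Of 12 markers of the distal convoluted tubule 5 were detected, namely Wnk4, Cnnm2, Kcnj10, Trpm6 and Egf, from 40.0 to 0.722 TPM. Of all protein-coding genes 50.6% were detected. Egf had only 2, 1 and 0 counts in replicates 1, 2 and 3. Slc12a3, Pvalb, Calb1, Klhl3, Emx1, Sall3 and Tmem52b had 0 counts, which allows a level of up to 2.20 CPM (3 counts over the libraries together). Macrophages are rich in lysosomes, and of their 10 markers Cd14 (56.1 ± 29.5 TPM), Csf1r (29.2 ± 7.57 TPM) and Cd68 (10.9 ± 4.14 TPM), itself a lysosomal protein, had counts. The other macrophage markers, Ptprc, Adgre1, Lyz2, Itgam, Tyrobp, Fcer1g and C1qa, had 0 counts in all libraries. Of 8 proximal tubule markers Aqp1, Lrp2, Slc6a19 and Cubn were detected (84.6 to 1.26 TPM), and Slc34a1, Slc5a2, Slc5a12 and Slc22a6 had 0 counts.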

How the data were processed

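Total RNA (500 ng, ribosomal RNA removed, fragments of about 300 bp, per the labels) was sequenced in 3 libraries of 1 group. The deposited table gives raw whole-number counts per Ensembl gene. Per the submitters' processing notes the build was mm10 (GRCm38) and the tools included STAR and HTSeq. The tools' versions and settings, the gene annotation and the handling of reads with several matches were not given in the sources used here.

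The members and gene lists were chosen with earlier results of these data known. GENCODE M21 supplied symbols, coordinates and exon unions, and 55227 of 55487 identifiers matched it, while the 260 others held 313 counts. Library sizes were scaled with TMM in edgeR 4.0.16 (R 4.3.3), with factors of 0.992, 1.00 and 1.01. TPM used the union of exons and sums over all matched genes in a library. The replicate test compared each gene's counts with library size (chi-square, adjusted by Benjamini-Hochberg, threshold 0.05). On simulated data for all 12473 detected genes, the test found 5.00%, 27.0% and 54.5% of 200 genes changed 1.5-, 2- and 4-fold in 1 library, with 0, 4 and 2 false calls. For the 7636 genes with 20 CPM or more it found 13.0%, 36.5% and 80.5%, with 3, 2 and 6 false calls. edgeR's common biological coefficient of variation was 0.0394.

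Pairs were compared as log2 ratios of (counts + 0.5) per exon length. Named were members, distal tubule and macrophage markers, and of each further list up to 4 of the highest genes, those without counts (up to 4) and those passing the replicate test. Atp6v0a4, Atp6v1c2, Atp6v1g3, Napsa, Rubcn, the proximal tubule markers and genes that overlap or share sequence with a member were named after their values were seen. Alternatives were DESeq2 1.42.0 size factors, total counts, other filters, lengths and pseudocounts, and leaving out each replicate. Some members, pairs and listed genes are not reported here, though the counts and medians over members and lists include them. Protein sequences of the ATG8 family were not analysed here. Other software was Python 3.11.15 with scipy 1.17.1, pandas 2.3.3, matplotlib 3.10.9 and numpy 2.4.6.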

Additional observations from a re-analysis of the deposited data

How the results depend on the processing

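Transcript length was the choice that moved results most. The members' median of 53.2 TPM was 72.1 with average and 65.2 with the longest protein-coding transcripts, and 51.6 to 56.0 TPM with 1 replicate left out. Of the 25 log2 pair ratios, average lengths turned Cd63/Lamp1 to 1.11 and Ctsb/Ctsl to -0.80, and the longest transcripts turned Cd63/Lamp1 to 0.92. No pair turned with another pseudocount or without any 1 replicate. Genes called in the replicate test numbered 5, and 1 to 3 with a replicate left out (1 without replicate 1, 3 without replicate 2 or 3), where fewer samples were tested. No member was called under any of these settings, and 42 members stayed detected under every alternative. Scaling was not varied for TPM, which has no library-size factor. No paired analysis was possible because the labels give 1 group. The depth leaves Mitf, Tfeb, Atg7 and Atg16l1, each with 30 counts or fewer, with wide intervals.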
